A study of Mus musculus with 48 samples.

Results

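The 4 protease-activated receptor genes of the mouse, F2r, F2rl1, F2rl2 and F2rl3, were followed in RNA from the cerebral cortex of 48 mice. They were picked by gene name as the known family of thrombin and related protease receptors, and the choice was made because measured levels of F2r and F2rl2 had been seen to differ with the number of altered Msh3 alleles; all 4 of the 48795 genes in the files were found. All mice were 6 months old and are listed on a C57BL/6 background. There were 8 Q140 x Msh3-/- mice, 8 Msh3-/- mice, 8 Q140 x Msh3+/- mice, 9 Msh3+/- mice, 8 Q140 mice and 7 wild-type (WT) mice, with 4 males in each group and 4 females in each apart from Msh3+/- (5) and WT (3). Q140 is a knock-in of an expanded CAG repeat in Htt, the huntingtin gene of Huntington's disease, heterozygous in every carrier here and present in each cell rather than driven by a transgene. The product of Msh3 acts in DNA mismatch repair, where it recognises insertion and deletion loops. By the labels, Msh3-/- mice carry 2 altered Msh3 alleles, Msh3+/- mice 1, and Q140 and WT mice 0; the labels do not say how the alleles were altered or whether mice shared a litter. Over all 6 groups, 16 mice had 2 altered alleles, 17 had 1 and 15 had 0.

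Protease-activated receptors are G protein-coupled receptors that carry their own ligand. A protease cuts the extracellular N-terminus, and the new end folds back and switches the receptor on, after which the receptor is desensitised, internalised and degraded. F2r encodes PAR1, the main thrombin receptor of endothelium and of many brain cells. F2rl1 encodes PAR2, which trypsin-like enzymes cut and thrombin does not cut well. F2rl2 encodes PAR3, which in mouse platelets binds thrombin and presents it to PAR4, the product of F2rl3. In brain, PAR1 is known from astrocytes, neurons and vessels.

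The 30 coding bases around the known cut are shown because they are what makes these 4 genes a family and what tells the members apart: 12 bases before the cut are in lower case and the 18 bases that encode the new end are in capitals, 5′ to 3′ on the coding strand, from the GENCODE M21 transcripts on GRCm38. The first codon after the cut is codon 42 in F2r (chr13:95604885-95604914, minus strand), 39 in F2rl1 (chr13:95514241-95514270, minus strand), 38 in F2rl2 (chr13:95700548-95700577, plus strand) and 60 in F2rl3 (chr8:72762312-72762341, plus strand).
F2r: gtgaacccccgcTCATTCTTTCTAAGGAAT
F2rl1: agtaaaggaagaAGTCTTATTGGCAGATTA
F2rl2: ttaactattaagAGTTTTAATGGGGGTCCC
F2rl3: cctaatccacgaGGCTACCCGGGCAAATTC
The transcript read for each gene has 2 exons, and the coding regions are 1290, 1197, 1107 and 1188 bases long in the same order. Aligned in pairs, the coding regions were identical at 57.3% (F2r and F2rl3) to 59.4% (F2rl1 and F2rl2) of aligned bases. The longest run of bases shared by any pair of the 4 transcripts was 17, between F2r and F2rl2. No pair is a near-identical copy.

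F2r and F2rl2 are the members whose levels below did not overlap between mice with 0 and mice with 2 altered alleles. The choice of genes used these differences, so the non-overlap is a description. The RefSeq promoters of this pair (GRCm38.p6, 250 bases before to 50 after the start, on the coding strand) are shown for that reason. The capitals in F2r (chr13:95618417-95618716, minus strand) mark the single match to GGGCGG, here on the opposite strand, and F2rl2 (chr13:95696670-95696969, plus strand) has no capitals because none of the motifs searched was in it.
F2r promoter: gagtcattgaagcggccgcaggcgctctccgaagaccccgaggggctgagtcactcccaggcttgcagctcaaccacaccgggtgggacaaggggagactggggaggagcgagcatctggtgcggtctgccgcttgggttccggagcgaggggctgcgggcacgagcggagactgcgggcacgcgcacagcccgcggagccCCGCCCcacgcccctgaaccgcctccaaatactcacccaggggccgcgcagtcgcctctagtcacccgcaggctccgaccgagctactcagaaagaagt
F2rl2 promoter: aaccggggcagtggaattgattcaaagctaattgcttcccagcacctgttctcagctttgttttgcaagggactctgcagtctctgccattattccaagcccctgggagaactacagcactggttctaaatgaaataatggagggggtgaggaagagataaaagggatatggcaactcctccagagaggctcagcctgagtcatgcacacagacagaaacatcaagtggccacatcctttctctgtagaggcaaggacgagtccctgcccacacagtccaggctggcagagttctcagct
The F2r promoter was 68.7% G and C with 28 CG dinucleotides, and the F2rl2 promoter 50.7% with 2, beside medians of 53.0% and 7 over 32544 promoters of the same length. The motifs were searched on both strands, and none can overlap another within these promoters since at most 1 match was found. TATAAA was present in 13.6% of the 32544 promoters. The motif GGGCGG was present in 35.9%, and CCAAT in 37.4%. A match is a run of letters and not a bound site.

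Libraries held between 35.9 M and 64.5 M counts, so that 1 count was worth 0.0154 to 0.0275 CPM (counts scaled by library size and composition). The targeted gene was looked at first, and it went against a reading of the labels as loss of Msh3 RNA: Msh3 averaged 23.9 ± 1.21 CPM in the 15 mice with 0 altered alleles, 67.0 ± 4.57 in the 17 with 1 and 111 ± 7.39 in the 16 with 2 (SD), with no overlap between the classes. "Msh3-/-", "Msh3+/-" and "altered alleles" below are therefore the labels' words, and every direction is drawn between libraries labelled so. A count per gene carries no exon detail and says nothing of Msh3 protein. The libraries labelled Msh3-/- female 3, Msh3-/- female 4 and WT male 3 carried the most choroid plexus marker RNA, up to 1991 CPM summed over 8 markers beside a median of 231 over all mice, and Q140 x Msh3-/- male 4, Msh3+/- male 2 and Q140 male 1 were separate from the rest along principal component 2. Several values below are given without these libraries as well.

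F2r, F2rl1 and F2rl2 lie side by side on chromosome 13 in a span of 191 kb (95511732 to 95702739 on GRCm38), which begins 3.16 Mb beyond the end of Msh3 (92211872 to 92355003). The labels do not describe the DNA linked to Msh3 in each mouse. Altered alleles and linked DNA therefore cannot be told apart in the differences by label below, and their parts were not tested. F2rl1 (95511732 to 95525227) and F2r (95601803 to 95618487) are on the minus strand and 76.6 kb apart. F2rl2 (95696853 to 95702739, plus strand) follows F2r after 78.4 kb and lies inside the body of Iqgap2 (95627177 to 95891922, minus strand), a scaffold protein gene, with 0 exonic bases in common. The strand setting of the authors' counting is not given in the sources used here, so reads of unspliced Iqgap2 RNA over F2rl2 exons cannot be told apart from F2rl2 reads. F2rl3 is on chromosome 8 (72761880 to 72763874, plus strand).

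Levels of different genes were compared per length, as the authors' FPKM (fragments scaled by gene length and library size). Over all 48 mice F2r was highest at 1.56 ± 0.368 FPKM, followed by F2rl2 at 0.751 ± 0.269, F2rl1 at 0.0620 ± 0.0300 and F2rl3 at 0.0464 ± 0.0267 (SD). The order of F2rl1 and F2rl3 varied between mice and was not tested. F2rl1 was above F2rl3 in 12 of 15 mice with 0 altered alleles, 10 of 17 with 1 and 11 of 16 with 2. All 4 are low in cortex: 62.2% of the 20010 genes kept for testing had a higher mean FPKM than F2r, 72.5% than F2rl2, 97.7% than F2rl1 and 98.9% than F2rl3. In raw counts F2r had 130 to 372 (median 247) and F2rl2 31 to 184 (median 79.5) per mouse. F2rl1 had 1 to 23 counts (median 7, with 3 or fewer in 5 mice) and F2rl3 1 to 9 (median 4, with 3 or fewer in 21 mice). F2r, F2rl1 and F2rl2 passed the filter on low counts and F2rl3 did not. A level in whole cortex cannot tell fewer expressing cells from less RNA per cell.

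The FPKM order of F2r and F2rl2 differed between the allele classes. The choice of genes used these opposite differences, so the order and shares by class are a description that adds no support. With 0 altered alleles F2r averaged 1.13 ± 0.174 FPKM and F2rl2 1.01 ± 0.175, a difference smaller than either SD. With 1 they averaged 1.61 ± 0.216 and 0.747 ± 0.199 FPKM, and with 2 they averaged 1.92 ± 0.142 and 0.507 ± 0.153 FPKM. F2r was above F2rl2 in 9 of 15 mice with 0 altered alleles, 17 of 17 with 1 and 16 of 16 with 2. The sum of both genes was 2.15 ± 0.229 FPKM with 0 altered alleles, 2.36 ± 0.310 with 1 and 2.43 ± 0.201 with 2 (SD). F2r made up 50.4% ± 5.79 of the FPKM of all 4 receptors with 0 altered alleles, 65.3% ± 5.80 with 1 and 76.0% ± 5.24 with 2.

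F2r, the PAR1 gene, was higher in mice with altered Msh3 alleles. Because the genes were chosen on these differences, they are given as a description, without a test. With 0 altered alleles F2r ran from 2.93 to 5.06 CPM (median 3.69, n = 15), with 1 from 4.17 to 7.21 (median 5.18, n = 17) and with 2 from 5.73 to 7.13 (median 6.42, n = 16). All 16 mice with 2 altered alleles were above the highest mouse with 0, WT male 3, and 12 of 17 with 1 were. How many of all genes part these classes as fully was not counted. The classes with 1 and 2 overlapped: the highest mouse of all, Msh3+/- female 4 at 7.21 CPM, had 1 altered allele. F2r averaged 6.38 ± 0.559 CPM in the Q140 x Msh3-/- group and 6.34 ± 0.362 for Msh3-/-. It averaged 5.21 ± 0.603 CPM in the Q140 x Msh3+/- group and 5.43 ± 0.833 for Msh3+/-, and 3.77 ± 0.457 CPM in Q140 and 3.69 ± 0.697 in WT mice (SD). In this order Q140 x Msh3-/- and Msh3-/-, then Q140 x Msh3+/- and Msh3+/-, then Q140 and WT are neighbours that do not differ beyond their spread.

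**Figure D1:**
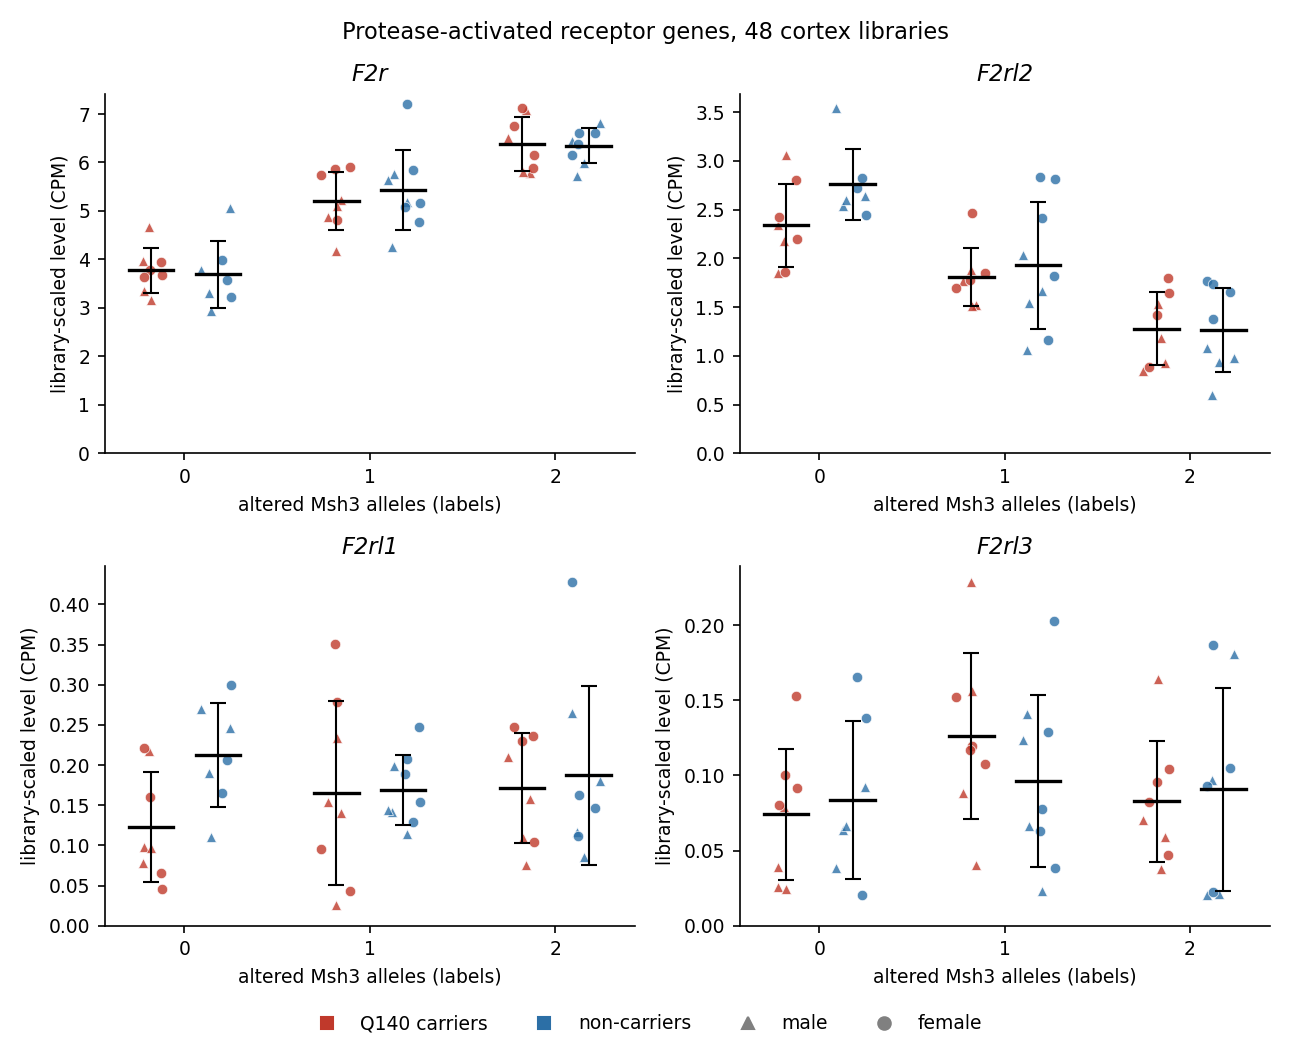
Level of each receptor gene (CPM, linear axes from 0) in 48 mice by number of altered Msh3 alleles in the labels, with Q140 carriers in red left of non-carriers in blue, triangles for males and circles for females; black lines are means with SD. F2r runs from 2.93 to 5.06 CPM with 0 altered alleles and from 5.73 to 7.13 with 2, F2rl2 runs the other way, and F2rl1 and F2rl3 overlap in all classes.

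On the log2 scale, with sex in the model, F2r was higher by 0.77 ± 0.09 (SE) in Msh3-/- against WT mice, a 1.70-fold difference, and by 0.76 ± 0.09 in Q140 x Msh3-/- against Q140. With 1 altered allele the differences were 0.54 ± 0.09 in Msh3+/- against WT and 0.46 ± 0.09 in Q140 x Msh3+/- against Q140. Mice with 1 altered allele lay 0.12 ± 0.05 above the midpoint of the other classes on the log2 scale, averaged over Q140 status. The difference in Msh3-/- against WT was 0.86 without the 3 libraries with choroid plexus RNA, 1 of which, WT male 3, is the WT mouse with the highest F2r at 5.06 CPM. Leaving out the 3 libraries separate along principal component 2 gave 0.77.

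F2rl2, the PAR3 gene, went the other way and was lower with each altered allele. It ran from 1.85 to 3.54 CPM with 0 altered alleles (median 2.54), from 1.06 to 2.83 with 1 (median 1.78) and from 0.602 to 1.80 with 2 (median 1.28). All 16 mice with 2 altered alleles lay below the lowest mouse with 0, by a narrow margin (1.80 against 1.85 CPM). Of those with 1, 10 of 17 did, and the classes with 1 and 2 overlapped. F2rl2 too was chosen on this difference, so it is a description, and how many of all genes part these classes as fully was not counted. F2rl2 averaged 1.28 ± 0.372 CPM in the Q140 x Msh3-/- group and 1.27 ± 0.431 for Msh3-/-. It averaged 1.81 ± 0.300 CPM in the Q140 x Msh3+/- group and 1.93 ± 0.654 for Msh3+/-, and 2.34 ± 0.424 CPM in Q140 and 2.76 ± 0.367 in WT mice (SD). Within each allele class the ranges of carriers and non-carriers of Q140 overlapped, so the order of these neighbours is not set.

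The log2 difference of F2rl2 was -1.18 ± 0.17 in Msh3-/- against WT, a level 0.442 times that of WT, and -0.88 ± 0.17 in Q140 x Msh3-/- against Q140. It was -0.58 ± 0.16 in Msh3+/- against WT and -0.38 ± 0.16 in Q140 x Msh3+/- against Q140. The middle class lay 0.04 ± 0.10 above the midpoint of the outer ones, and 0.09 above it without the libraries separate along principal component 2. Without the choroid plexus libraries the difference in Msh3-/- against WT was -1.22, and it was -1.17 when those separate along principal component 2 were left out. The host gene Iqgap2 averaged 42.0 ± 7.36 CPM with 0 altered alleles, 47.6 ± 8.39 with 1 and 49.8 ± 6.25 with 2. A count per gene does not measure unspliced Iqgap2 RNA over F2rl2, and the part of such reads was not tested.

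No call is given for the receptor genes in these 4 comparisons, since their choice used the same values. As background, edgeR's quasi-likelihood test at an adjusted p under 0.05 called 0.035% of the 20010 genes in Msh3-/- against WT, 0.025% in Msh3+/- against WT, 0.045% in Q140 x Msh3-/- against Q140 and 0.02% in Q140 x Msh3+/- against Q140. The comparisons against WT share the WT mice, and those against Q140 share the Q140 mice.

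**Figure D2:**
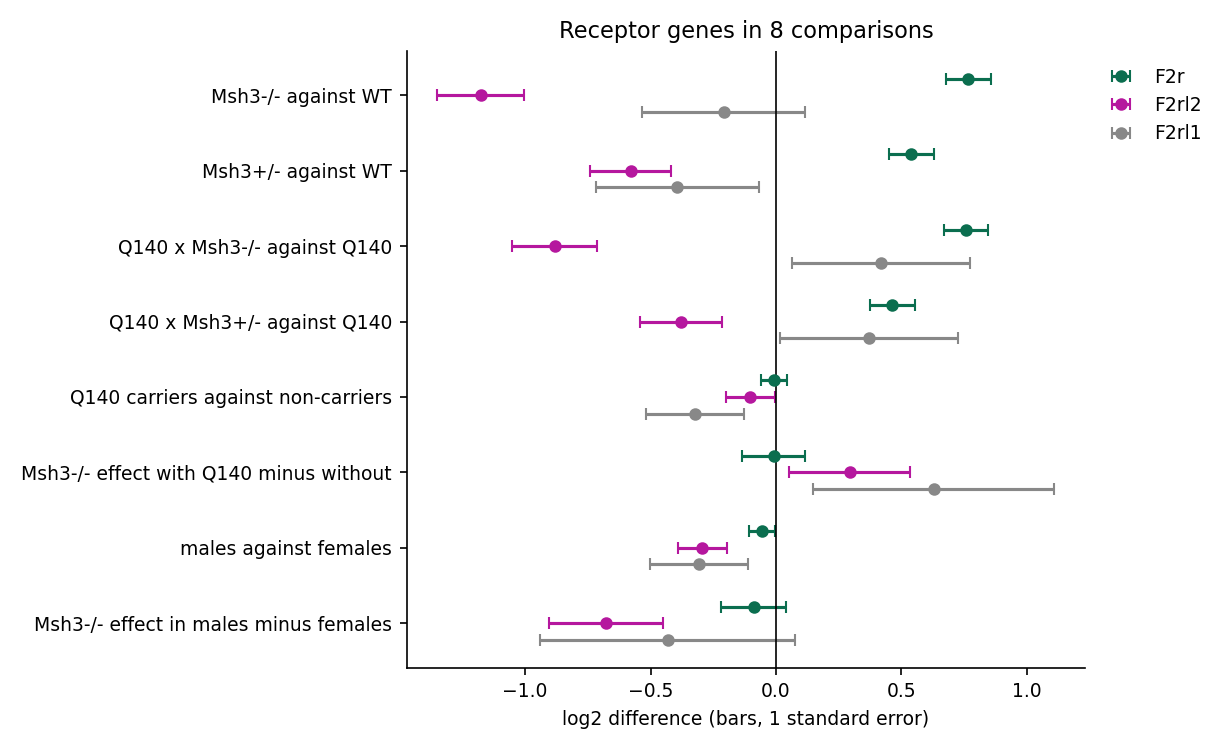
Log2 difference of F2r, F2rl2 and F2rl1 in 8 comparisons from the fit over 48 mice, with bars of 1 standard error. In the upper 4 comparisons, between labelled Msh3 genotypes, F2r lies between 0.46 and 0.77 and F2rl2 between -1.18 and -0.38, while F2rl1 is on both sides of 0 with wide bars; F2r lies at -0.01 in the Q140 comparison.

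F2r and F2rl2 were also set against each other within a mouse, as a ratio of raw counts that needs no scaling by library size. Both genes were chosen on their differences between the classes, which run in opposite directions. The ratio was therefore bound to part the classes, and it is a description that adds no support. The ratio of F2r to F2rl2 counts ran from 1.03 to 2.15 with 0 altered alleles (median 1.43), from 1.79 to 5.03 with 1 (median 3.11) and from 3.28 to 9.52 with 2 (median 5.50). The classes with 0 and 2 were fully apart, 14 of 17 mice with 1 lay above all mice with 0, and 8 of 16 with 2 lay above all mice with 1. The lowest ratio of all was in Q140 male 4 and the highest in Msh3-/- male 4.

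**Figure D3:**
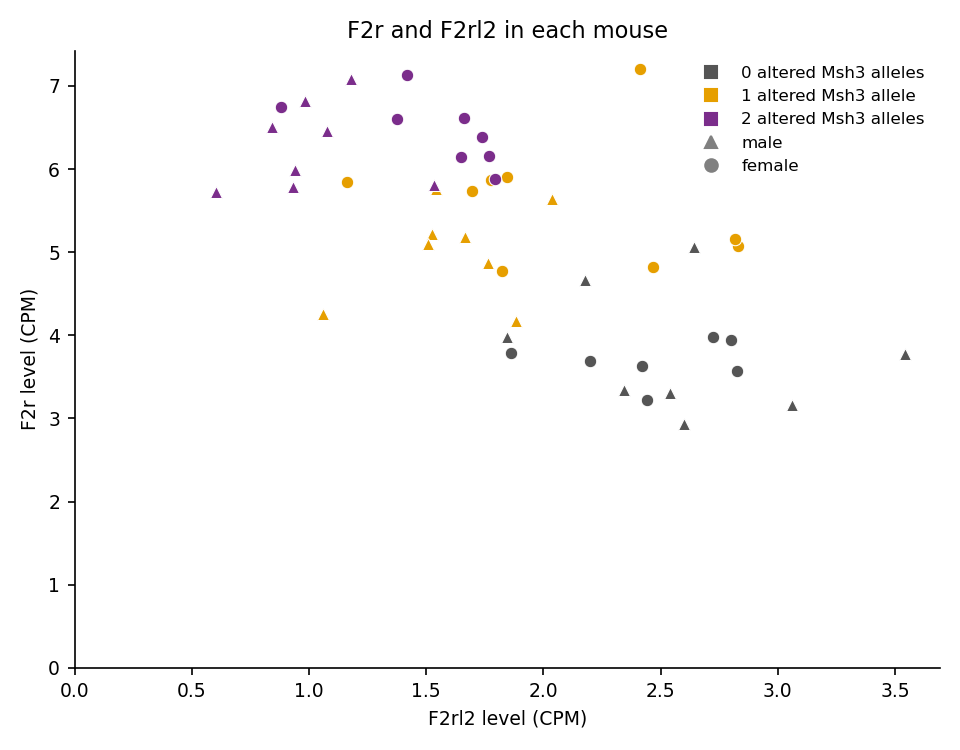
F2r against F2rl2 (CPM) in each of 48 mice, with grey for 0, orange for 1 and purple for 2 altered Msh3 alleles, triangles for males and circles for females. Mice with 2 altered alleles lie at the upper left (F2r from 5.73, F2rl2 up to 1.80 CPM) and mice with 0 at the lower right (F2r up to 5.06, F2rl2 from 1.85 CPM).

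Within an allele class, F2r and F2rl2 did not track each other detectably. After removal of Q140 status and sex, Pearson's r between their log2 levels was -0.09 (Spearman's rho -0.18) in 16 mice with 2 altered alleles, with permutation p-values of 0.729 and 0.503. In 17 mice with 1 it was -0.03 (rho -0.002, permutation p = 0.911 and 0.996), and in 15 with 0 it was -0.14 (rho -0.08, permutation p = 0.617 and 0.783). Without the 2 mice farthest from the median F2r, r was -0.15, -0.40 and -0.03 in the same order of classes. Of 18 such relations, between F2r, F2rl1, F2rl2 and Msh3 in 3 classes, 0 passed Benjamini-Hochberg adjustment over the 18. The smallest unadjusted p was 0.0499, for F2r and Msh3 in mice with 2 altered alleles (r = -0.50, rho = -0.36 with p = 0.167, adjusted p = 0.898 and 0.871), where r was -0.36 without 2 mice.

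F2rl1, the PAR2 gene, is the member nearest to Msh3 and had few counts. It ran from 0.0458 to 0.299 CPM with 0 altered alleles (median 0.166), from 0.0254 to 0.350 with 1 (median 0.154) and from 0.0762 to 0.428 with 2 (median 0.161). The classes overlapped almost fully: 1 of 16 mice with 2 altered alleles, Msh3-/- female 1 with 23 counts, was above all mice with 0. The log2 differences were -0.21 ± 0.33 in Msh3-/- against WT, -0.39 ± 0.32 in Msh3+/- against WT, 0.42 ± 0.35 in Q140 x Msh3-/- against Q140 and 0.37 ± 0.36 in Q140 x Msh3+/- against Q140. Each of the 4 lay within 2 SE of 0. The value in Msh3-/- against WT moved with the libraries included. It ran from -0.48 to -0.11 with each mouse left out in turn. Without the 3 choroid plexus libraries together it was -0.005, and without those separate along principal component 2 it was -0.20.

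F2rl3, the PAR4 gene on another chromosome, had medians of 0.0791, 0.117 and 0.0878 CPM with 0, 1 and 2 altered alleles, and ranges that overlapped from 0.0204 to 0.229 CPM. A level of 3 counts corresponds to 0.0461 to 0.0826 CPM in these libraries, so many values rest on a few reads. It was fitted only with the filter on low counts removed, where it differed by 0.08 ± 0.44 in Msh3-/- against WT and 0.13 ± 0.44 in Q140 x Msh3-/- against Q140 on the log2 scale. In that fit it differed by 0.03 ± 0.25 between Q140 carriers and non-carriers and by -0.38 ± 0.24 between males and females (edgeR adjusted p = 0.480 for sex).

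The Q140 allele was not used in choosing the genes, so carriers and non-carriers were tested. F2r averaged 5.12 ± 1.21 CPM in 24 Q140 carriers and 5.23 ± 1.26 in 24 non-carriers. F2rl2 averaged 1.81 ± 0.565 CPM in carriers and 1.95 ± 0.776 in non-carriers, and F2rl1 0.153 ± 0.0856 in carriers and 0.188 ± 0.0765 in non-carriers. Averaged over the 3 Msh3 genotypes, the log2 difference was -0.01 ± 0.05 for F2r (95% interval -0.11 to 0.09, edgeR adjusted p = 0.997), -0.10 ± 0.10 for F2rl2 (-0.29 to 0.09, adjusted p = 0.965) and -0.32 ± 0.19 for F2rl1 (-0.70 to 0.06, adjusted p = 0.909). None of the 3 tested members passed, where edgeR called 0.035% of all genes, and the ranges of carriers and non-carriers overlapped for each member.

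The difference between 2 and 0 altered alleles was also compared between Q140 carriers and non-carriers. The difference of the differences was -0.01 ± 0.13 for F2r (95% interval -0.26 to 0.24, adjusted p = 0.999), 0.29 ± 0.24 for F2rl2 (-0.18 to 0.77, adjusted p = 0.961) and 0.63 ± 0.48 for F2rl1 (-0.32 to 1.57, adjusted p = 0.956). Without the choroid plexus libraries these were -0.11 for F2r, 0.34 for F2rl2 and 0.42 for F2rl1. edgeR called 0% of all genes in this comparison, with 1070 at an unadjusted p under 0.05, and DESeq2 and limma with voom each called 0.

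Sex was not used in the choice either. F2rl2 averaged 1.74 ± 0.759 CPM in 24 males and 2.02 ± 0.563 in 24 females, F2r 5.02 ± 1.20 in males and 5.33 ± 1.25 in females, and F2rl1 0.153 ± 0.0654 in males and 0.189 ± 0.0940 in females. Between males and females edgeR called 5.56% of all genes, and 0 of the 3 tested members. The log2 difference was -0.29 ± 0.10 for F2rl2 (unadjusted p = 0.00403, adjusted p = 0.0610), -0.06 ± 0.05 for F2r (adjusted p = 0.572, and -0.03 without the libraries separate along principal component 2) and -0.31 ± 0.20 for F2rl1 (adjusted p = 0.380). F2rl2 passed with DESeq2 (-0.30, adjusted p = 0.0317) and did not with limma and voom weights (-0.24, adjusted p = 0.109). The same direction was held in fits that left out each of the 48 mice in turn, with adjusted p-values from 0.0298 to 0.0979, 7 of them under 0.05. The sum of 11 platelet and red cell markers was 9.57 ± 4.49 CPM in males and 6.13 ± 3.09 in females, and that of 12 endothelial markers 267 ± 14.7 CPM in males and 278 ± 19.2 in females; their part in the sex difference was not tested.

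Split by allele class, mean F2rl2 was lower in males than in females with 1 and 2 altered alleles and slightly higher in males with 0. With 0 altered alleles F2rl2 averaged 2.59 ± 0.524 CPM in 8 males and 2.47 ± 0.352 in 7 females. With 1 it averaged 1.62 ± 0.294 in 8 males and 2.09 ± 0.567 in 9 females, and with 2 it averaged 1.01 ± 0.271 in 8 males and 1.54 ± 0.306 in 8 females. In Msh3-/- mice the 4 males ran from 0.602 to 1.08 CPM and the 4 females from 1.38 to 1.77, without overlap. How many of all genes part these mice as fully was not counted. These males and females also share no stem of the column names (described under processing), so sex and stem cannot be told apart among them. Some of these females share a stem with each other, and whether they are independent was not tested. In Q140 x Msh3-/- mice males ran from 0.842 to 1.53 CPM and females from 0.881 to 1.80, with overlap. The difference between 2 and 0 altered alleles was more negative in males by 0.68 ± 0.23 on the log2 scale (males minus females -0.68, 95% interval -1.12 to -0.23, unadjusted p = 0.00468), and it did not pass adjustment over all genes (edgeR adjusted p = 0.9998). edgeR called 0% of all genes in that comparison, with 985 at an unadjusted p under 0.05, DESeq2 called 1 and limma with voom 0. For F2r the same difference was -0.09 ± 0.13 and for F2rl1 -0.43 ± 0.51.

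**Figure D4:**
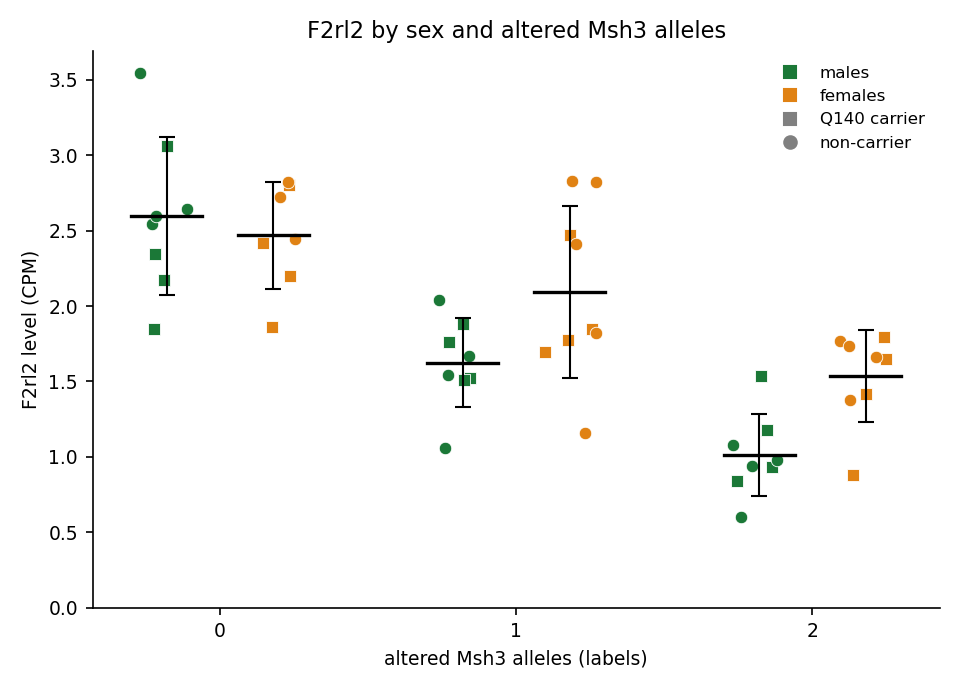
F2rl2 level (CPM) by number of altered Msh3 alleles, with males in green left of females in orange, squares for Q140 carriers and circles for non-carriers; black lines are means with SD. Means are 2.59 CPM in males and 2.47 in females with 0 altered alleles, 1.62 and 2.09 with 1, and 1.01 and 1.54 with 2.

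The genes whose residual pattern over the 48 mice was most like that of each member were found by Pearson's r of log2 CPM after removal of genotype and sex means, among 13154 genes of at least 1 mean CPM (13155 for F2rl1). The points share libraries, depth and RNA quality, so the values are descriptive. F2r was most like Ankrd46 (r = 0.59), Zfp729a (0.57), Rilp (0.52), Ints5 (0.50) and Eif3s6-ps2 (0.49), and least like Rsl1 (-0.60) and Cthrc1 (-0.48). Zfp729a and Rsl1 are also on chromosome 13. F2rl2 was most like Pfkfb3 (0.77), Sorl1 (0.69), Spred2 (0.68) and Jade2 (0.68), and least like Necab3 (-0.76), Brpf3 (-0.69) and Dhodh (-0.67). F2rl1 was most like Mamdc2 (0.64), Pank4 (0.60), Fhl1 (0.56), Vim (0.56) and Ltbp4 (0.53), and least like Cep120 (-0.55), Ccdc174 (-0.53) and Htr5a (-0.53). None of the genes named was on more than 1 of these lists. With the 3 libraries separate along principal component 2 left out, r for Pfkfb3 was 0.76, for Necab3 -0.73 and for Rsl1 -0.64.

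Genes close to the cluster were also described. F2r and F2rl2 were chosen on their differences and these neighbours were not, so the contrast between them adds no support. The window used stops short of Msh3, which lies 3.16 Mb from the span, so it cannot show how far differences extend along the chromosome. Within 500 kb of the span, 25 genes are annotated, 13 were tested and 10 of these are not receptors. edgeR called 0 of the 10 in each of the 4 comparisons of labelled Msh3 genotypes, where it called 0.02% to 0.045% of all genes, and 3 had an unadjusted p under 0.05 in Msh3-/- against WT, 1 in Msh3+/- against WT, 2 in Q140 x Msh3-/- against Q140 and 1 in Q140 x Msh3+/- against Q140. Over all genes, 5.73%, 9.50%, 9.07% and 5.14% had an unadjusted p under 0.05 in the same order of comparisons. With DESeq2, and again with voom weights in limma, Crhbp passed in Q140 x Msh3-/- against Q140, and 0 of the 10 passed in the other 3 comparisons. Their log2 differences ran from -0.18 to 0.27 in Msh3-/- against WT and from -0.12 to 0.44 in Q140 x Msh3-/- against Q140, beside 0.77 and 0.76 for F2r. With 1 altered allele they ran from -0.22 to 0.29 in Msh3+/- against WT and from -0.56 (Gm29543) to 0.14 in Q140 x Msh3+/- against Q140, and the last range includes the -0.38 of F2rl2. Crhbp, which encodes a protein that binds corticotropin-releasing hormone and lies 66.8 kb before F2rl1, differed by 0.23 ± 0.07 (adjusted p = 0.536) and 0.30 ± 0.07 (adjusted p = 0.0617) in these comparisons. Iqgap2 differed by 0.27 ± 0.11 (adjusted p = 0.848) and 0.21 ± 0.10 (adjusted p = 0.541), and Aggf1, an angiogenic factor gene 136 kb before F2rl1, by 0.03 ± 0.03 and 0.04 ± 0.03. Past Iqgap2, the synaptic vesicle gene Sv2c differed by -0.18 ± 0.07 and -0.12 ± 0.07 and the gene model Gm29543 by -0.06 ± 0.32 and 0.08 ± 0.30, with adjusted p-values between 0.620 and 0.998 for these 3 genes.

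**Figure D5:**
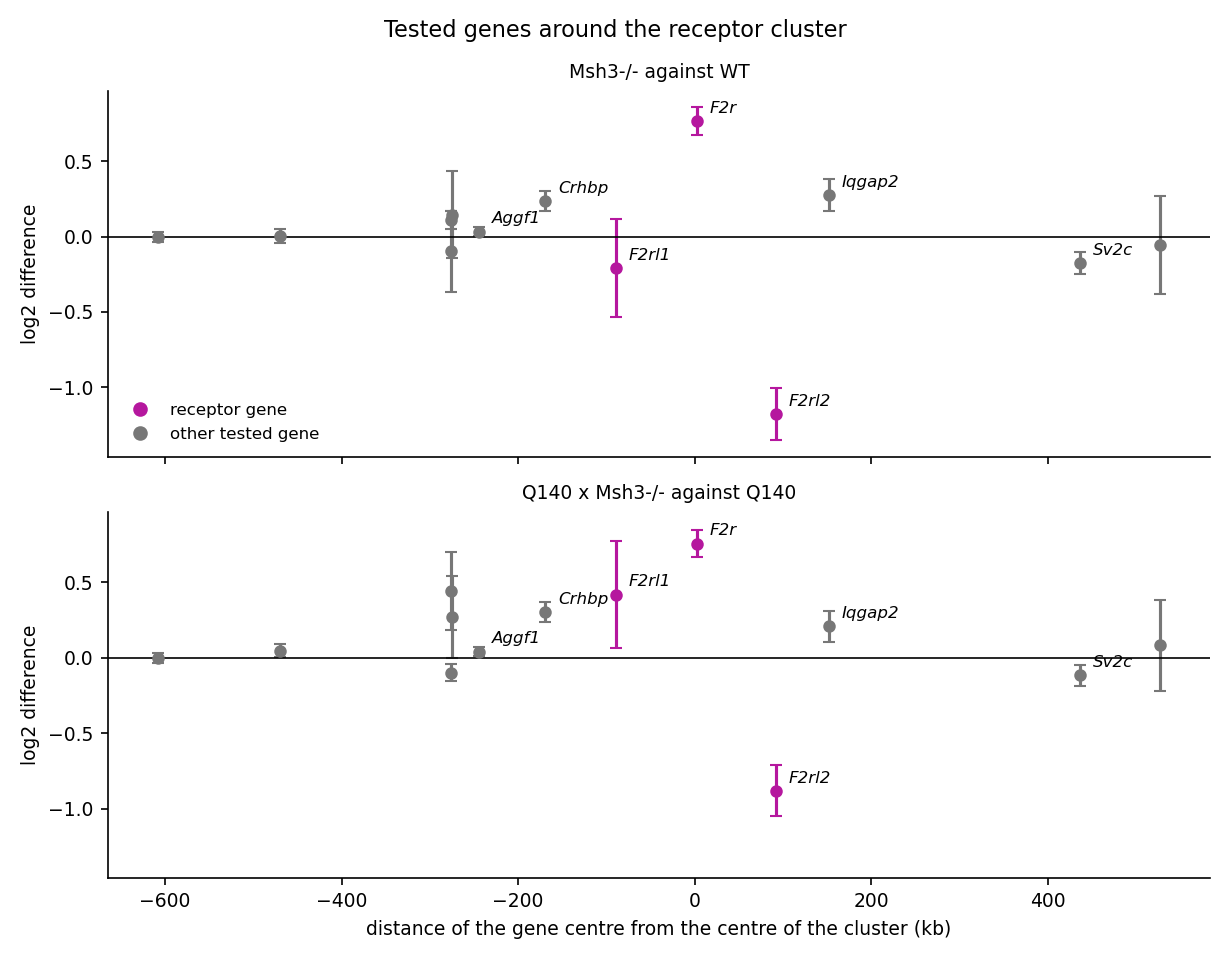
Log2 difference with 1 standard error of the 13 tested genes around the receptor cluster against the distance of each gene's centre from the centre of the cluster, in Msh3-/- against WT (top) and Q140 x Msh3-/- against Q140 (bottom); receptor genes are magenta and the others grey. F2r (0.77 and 0.76) and F2rl2 (-1.18 and -0.88), which were chosen on these differences, lie outside the range of the 10 other genes. That range is -0.18 to 0.27 at the top and -0.12 to 0.44 at the bottom.

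The genes that make, hold back and pass on the receptor signal were taken from 4 lists of gene symbols. The first held 31 symbols of proteases that can cut the receptors, with F3, the gene of a cofactor and not a protease, among them. The second held 18 symbols of inhibitors and cofactors of these proteases. The others held 25 symbols of G proteins and effectors and 25 of desensitisation and trafficking. Of the 99 symbols, 97 were in the files and 79 were tested. The last list gives Grk2 also as Adrbk1 and Grk3 also as Adrbk2, and 23 of its symbols were in the files. F2, the gene of thrombin itself, did not pass the filter on low counts, while the tissue factor gene F3, which starts thrombin formation, averaged 16.2 FPKM and the cathepsin S gene Ctss 38.1 FPKM. None was called in the 4 comparisons of labelled Msh3 genotypes or between Q140 carriers and non-carriers, by edgeR or under any of the other settings tried, including DESeq2 and limma; an unadjusted p under 0.05 was seen for 6 in Msh3-/- against WT, 12 in Msh3+/- against WT, 6 in Q140 x Msh3-/- against Q140, 2 in Q140 x Msh3+/- against Q140 and 4 for Q140. The shares of all genes at that threshold were 5.73%, 9.50%, 9.07%, 5.14% and 5.63% in the same order. The median log2 difference of the 79 was -0.006 in Msh3-/- against WT, beside -0.001 over all genes, and -0.006 in Q140 x Msh3-/- against Q140, beside -0.007.

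The genes below are given in the comparison of labelled Msh3 genotypes where their p was smallest. In the other such comparisons each difference was smaller in size, and its sign was not always the same. Among the proteases, Plau, the urokinase gene, had 3.36 ± 0.763 CPM with 0 altered alleles, 3.82 ± 0.659 with 1 and 3.89 ± 0.748 with 2. It differed by 0.43 ± 0.14 in Msh3-/- against WT (adjusted p = 0.740) and by 0.37 ± 0.13 in Msh3+/- against WT. In Q140 x Msh3-/- and Q140 x Msh3+/- against Q140 it differed by 0.02 ± 0.13 and 0.03 ± 0.13. Plat, the tissue plasminogen activator gene, differed by -0.15 ± 0.06 in Msh3+/- against WT (adjusted p = 0.434) and by -0.08 ± 0.06 in Msh3-/- against WT. In Q140 x Msh3-/- and Q140 x Msh3+/- against Q140 it differed by 0.08 ± 0.06 and 0.03 ± 0.06. Of the inhibitors, Serpini1 (neuroserpin, which blocks the Plat product) differed by 0.11 ± 0.04 in Q140 x Msh3-/- against Q140 (adjusted p = 0.432) and Serpine2 (protease nexin 1, a thrombin inhibitor) by 0.07 ± 0.03 in Msh3+/- against WT (adjusted p = 0.472). Of the effectors, Gnaq, the G protein subunit that drives phospholipase C, differed by 0.10 ± 0.03 and Prkca, a protein kinase C, by 0.15 ± 0.05, both in Msh3+/- against WT (adjusted p = 0.311 and 0.322). In desensitisation and trafficking, the receptor kinase gene Grk6 differed by -0.10 ± 0.03 in Msh3+/- against WT (adjusted p = 0.313) and the clathrin adaptor gene Ap2a1 by -0.09 ± 0.03 in Q140 x Msh3-/- against Q140 (adjusted p = 0.376).

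Between males and females 7 of the 79 were called, 3 higher in males and 4 lower, beside 5.56% of all genes. Spint2, a protease inhibitor gene, rose by 0.20 ± 0.05 on the log2 scale in males (adjusted p = 0.00962), Gna13, a G protein subunit gene, by 0.07 ± 0.02 (adjusted p = 0.0175) and Adrbk2, a receptor kinase gene, by 0.10 ± 0.02 (adjusted p = 0.00209). Arrb1, the beta-arrestin 1 gene, fell by 0.09 (SE 0.02, adjusted p = 0.000898), Itpr2, an inositol trisphosphate receptor gene, by 0.14 (SE 0.03, adjusted p = 0.000914), Plcb4, a phospholipase C gene, by 0.12 (SE 0.03, adjusted p = 0.00641) and Prkca by 0.09 (SE 0.03, adjusted p = 0.0384).

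Markers of the cells that could carry these receptors were summed per mouse, and their part in the differences was not tested. The 12 endothelial markers summed to 252 to 294 CPM with 0 altered alleles, 243 to 328 with 1 and 242 to 294 with 2, and the 9 mural markers to 213 to 244, 219 to 269 and 205 to 252 CPM in the same order. The 8 astrocyte markers summed to 5425 to 6875 CPM with 0 altered alleles, 5615 to 6551 with 1 and 5587 to 6756 with 2, and the 8 neuron markers to 12914 to 14094, 13066 to 14299 and 12817 to 14347 CPM. The 8 microglia markers summed to 243 to 326, 245 to 284 and 245 to 287 CPM, the 8 oligodendrocyte lineage markers to 1370 to 2267, 1432 to 2081 and 1414 to 1984, and the 8 meningeal fibroblast markers to 348 to 625.5, 277 to 811 and 349 to 564. All of these ranges overlapped between the classes, and each of these markers had a count in every mouse. Of the 11 platelet and red cell markers, 5 had a count in every mouse, and the sum ran from 2.89 to 20.9 CPM in males and from 2.66 to 14.5 in females.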

How the data were processed

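RNA from the cortex of 48 mice was made into TruSeq stranded libraries, per the labels' protocols. The authors deposited whole-number read counts per gene and, separately, FPKM values per gene. Tools listed in the submitters' processing notes are HTSeq 0.12.3, STAR 2.7.5c and SAMtools 1.10, with the build GRCm38. The annotation release and the strand setting of the counting are not given in the sources used here. Groups come from the genotype and sex labels.

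From the counts, edgeR 4.0.16 (R 4.3.3) was fitted to all 48 mice with genotype and sex as terms, TMM scaling and the quasi-likelihood test, after its filter on low counts left 20010 of 48795 genes, which hold 99.96% of all counts. Adjusted p-values are Benjamini-Hochberg values over all 20010 genes, called under 0.05. The comparison of males and females in their allele difference used 12 groups of genotype and sex. CPM are counts scaled by the TMM library size. Errors are SD over mice, or SE for log2 differences. FPKM set levels between genes, and in alternatives limma 3.58.1 was run on log2(FPKM + 0.1) and log2(FPKM + 1). Other alternatives were DESeq2 1.42.0, limma with voom weights, other scaling and filters, plate column, a replicate block, 6 libraries left out in groups of 3, and each mouse left out in turn. Plate columns were unevenly spread over the groups, and most Msh3+/- mice were in columns that held few WT mice. Plate column and genotype are therefore partly confounded. Correlations used 100000 permutations within a class and are two-sided. Tests were checked on simulated data.

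The receptor genes and the gene lists were chosen with earlier results of these data known. Receptor values in comparisons of labelled Msh3 genotypes are therefore given with no p and no call. Genes named besides the receptors were Msh3, genes overlapping a receptor gene or nearest to the cluster, listed pathway genes past the threshold or otherwise of smallest p, and the 5 most and 3 least like genes per receptor. Some of the like genes are not reported here. Nothing in the labels says that equal replicate numbers mark shared litters or days, and mice of equal number and sex did not deviate together (mean r -0.03 over 115 pairs), so numbers pair no mice. Column names also carry a stem that some mice share, both within a group and between groups. Its meaning is not given in the sources used here. Among pairs of different groups, mice of 1 stem had a mean r of 0.04 over 23 pairs, beside 0.004 over 832 other pairs. Pairs within a group were left out of this check, so likeness of mice sharing a stem within a group was not tested. The edgeR fit treated mice of 1 stem as independent, and the stem was a random block in an alternative. Where nothing says that mice came from separate litters, p-values measure the spread between these samples. A count of 3 was taken as the floor, which covers counting error only.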

Additional observations from a re-analysis of the deposited data

Results flagged for a closer look

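In 24 groups of mice examined over the 4 genes, 2 had a mouse far from the others of its group by Dixon's test, where chance flags about 1 in 20 groups. F2rl2 was 2.47 CPM (124 counts) in Q140 x Msh3+/- female 2, against 1.88 CPM in the next of 8 mice. F2rl2 was 3.54 CPM (184 counts) in WT male 4, against 2.82 CPM in the next of 7 mice.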

How the results depend on the processing

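F2r was higher and F2rl2 lower in every setting tried for the 4 comparisons of labelled Msh3 genotypes. On log2(FPKM + 1), which shrinks low genes by construction, F2r differed by 0.47 in Msh3-/- against WT, 0.31 in Msh3+/- against WT, 0.45 in Q140 x Msh3-/- against Q140 and 0.27 in Q140 x Msh3+/- against Q140, and F2rl2 by -0.50 in Msh3-/- against WT and -0.36 in Q140 x Msh3-/- against Q140. Values near 0 changed sign, and the cause was not tested. F2r in Q140 carriers was 0.0016 on log2(FPKM + 0.1), 0.030 without the 3 choroid plexus libraries and -0.027 to 0.029 with each mouse left out. The Q140 difference of the F2r allele difference was 0.033 with plate column and -0.11 to 0.050 with each mouse left out, and the sex difference of it was 0.022 without the choroid plexus libraries. F2rl2 in males against females was -0.30 with DESeq2 and -0.327 to -0.260 with each mouse left out. Genes called numbered 14 with DESeq2 and 14 with voom in Msh3-/- against WT. In Msh3+/- against WT they numbered 12 with DESeq2, 1 with plate column and 2 with the compared groups alone. For Q140 they numbered 12 with DESeq2, 13 with voom, and 4 in each of both FPKM fits, the replicate block, plate column and without the choroid plexus libraries. DESeq2 called 1 for the sex difference of the allele difference. The replicate block gave 7, 5, 10 and 4 calls in the 4 comparisons of labelled Msh3 genotypes in the order above, and 0 of the receptor genes passed under it where they were tested; it could not be fitted for males against females, since numbers are nested in sex. Without removal of Q140 status and sex, r of F2r and F2rl2 was 0.082 with 2 altered alleles and 0.163 with 1, and r of F2rl1 and F2rl2 was 0.127 with 2 and 0.269 with 0. A minimum of 1 CPM in 7 mice left no value for F2rl1. Depth limits F2rl1 (median 7 counts) and F2rl3 (median 4).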
